A study of Equus caballus with 6 samples.

Results

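The genes described here encode 5 transcription factors associated with trophectoderm, chosen by symbol: TFAP2A, TFAP2C, DLX5, GRHL1 and CDX2. All 5 were found, each on 1 row, among the 12270 rows of the expression table. The libraries came from horse (Equus caballus) blastocysts recovered on day 8 from superovulated mares and treated with the protease mix Pronase. Trophectoderm (TE, the outer epithelium that gives rise to placenta) was dissected off mechanically and gave 3 libraries, labelled 16, 23 and 24. The inner cell mass (ICM, the cell cluster inside) was freed by immunosurgery (lysis of the outer cells with antibody and complement) and gave 3 libraries, labelled 15, 22 and 25. The labels name no breed, mare, age or sex, and no library number occurs in both tissues. Tissue and isolation method coincide, so they cannot be told apart. Nothing in the labels says that the libraries of a tissue come from separate mares, so each p-value speaks only of variation among these libraries, which may be technical.

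AP-2 proteins (the TFAP2 genes) bind GC-rich palindromes as dimers and act in trophoblast, epidermis and neural crest. DLX5 is a homeodomain factor of the Distal-less family, known from craniofacial bone, limb and placenta. GRHL1 belongs to the grainyhead family, whose members control genes of epithelial junctions and barriers. CDX2 is a caudal homeodomain factor that, in mouse, keeps trophectoderm cells from expressing the pluripotency factor Pou5f1.

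RPKM as deposited here scales the reads of a gene by its length and by a factor for its library. The reads behind each value were recovered from the table as the smallest whole numbers that fit its values. Read numbers, their intervals and the counted lengths rest on that reading. Between 6526212 and 10686659 reads per library fell in its genes. The library factors did not simply follow these totals. ICM 25 and TE 23 held 6622207 and 6526212 reads and had factors of 0.970 and 0.772. Library ICM 25 stood apart from the other ICM libraries, with correlations of 0.864 and 0.895 to ICM 15 and 22 (Pearson, across 9436 genes, which are not independent replicates). ICM 15 and 22 correlated at 0.942 with each other. Correlations to the TE libraries were 0.897 to 0.904 for ICM 25, 0.892 to 0.900 for ICM 15 and 0.915 to 0.934 for ICM 22. Other markers of TE (5 of 10 in the table, among them GATA3, GATA2 and KRT7) summed to 97.4 to 120 RPKM in TE and 31.7 to 57.2 in ICM. All 5 were higher in every TE library than in every ICM library, as were 15.8% of all rows. For KRT7 the gap was narrow, with 8.53 to 8.67 RPKM in TE against 8.08 in ICM 25. Epiblast markers (8 of 10 in the table) summed to 168 and 176 RPKM in ICM 15 and 22, to 75.8 in ICM 25 and to 64.6 to 93.8 in TE, where SOX2 was at 0 reads. POU5F1 alone was 36.0 RPKM in ICM 25 and 33.2 to 53.6 in TE. Of the 8, 5 were higher in every ICM library, ICM 25 included, than in every TE library, as were 9.54% of all rows. The reverse held for 0 of them. Hypoblast markers (8 of 10) summed to 111 and 131 RPKM in ICM 15 and 22, 37.2 in ICM 25 and 38.4 to 53.8 in TE. Blood and immune markers (3 of 8) summed to at most 2.25 RPKM outside ICM 25, where they reached 5.20. CD68 was at its lowest in ICM 25 (0.324 RPKM, against 1.52 in ICM 15) and CD3E was at 0 there. The higher sum in ICM 25 thus rests on the 1 remaining marker. Markers of cumulus and uterine cells (3 of 8) summed to 7.01 and 8.04 RPKM in ICM 15 and 22, 30.2 in ICM 25 and 10.5 to 22.9 in TE. That sum mostly follows 1 gene, CYP19A1, at 4.36, 6.52 and 26.1 RPKM in ICM 15, 22 and 25 and 5.36 to 19.1 in TE. PGR was higher in every TE library (1.83 to 2.45 RPKM) than in every ICM library (0.555 to 0.768), as were 15.8% of all rows. MUC1 stood at 0.355 to 3.28 RPKM and overlapped between tissues. Whether such cells were present was not tested. The part of these marker groups in the results below was not tested. Results that rest on ICM 25 are given with and without it.

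The comparison of TE with ICM asked which of these factors distinguish the tissues. TFAP2A, DLX5 and GRHL1 were higher in TE, by 6.35-fold, 6.92-fold and 3.98-fold in mean RPKM. TFAP2C had nearly equal means, and CDX2 was near the detection floor of the table in both tissues, with each TE value above each ICM value. In limma with Benjamini-Hochberg adjustment over 9436 genes, 3 of the 4 members that passed the filter (1 RPKM or more in at least 3 libraries) were called higher in TE, where 0.933% of all genes tested were. Over all genes 88 were called higher in TE and 88 higher in ICM, and 83 and 129 after median of ratios rescaling, or 77 and 129 after quantile normalization. CDX2 did not pass the filter. TE lay wholly above ICM for 4 of the 5 members, as it did for 15.8% of all rows. CDX2 is among these 4, and its row reached the 0.4 RPKM floor of the table through TE libraries only. These RNA levels come from bulk tissue pieces, in which fewer cells of a type and less RNA per cell cannot be told apart.

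**Figure D1:**
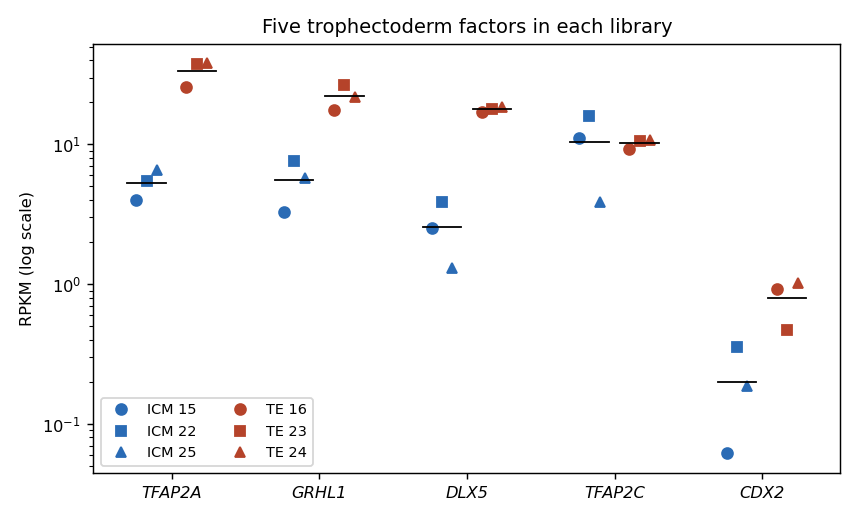
RPKM (log scale) of the 5 factors in each library, with ICM in blue, TE in red and black bars for the group means. TE points lie above all ICM points for TFAP2A, GRHL1, DLX5 and CDX2, while those of TFAP2C (9.24 to 10.8 RPKM) lie inside the ICM range of 3.86 to 16.1.

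TFAP2A, on chromosome 20 (10290290 to 10307429 in the coordinates of the table, which names no build), was the most abundant of the 5 in TE. It stood at 25.7, 37.5 and 37.9 RPKM in TE 16, 23 and 24, from 1133 to 1624 reads, and at 3.98, 5.44 and 6.50 RPKM in ICM 15, 22 and 25, from 165 to 274 reads. The lowest TE library thus lay well above the highest ICM library. The difference TE minus ICM in log2(RPKM + 1) was 2.46 (SE 0.27, 95% interval 1.85 to 3.07, limma adjusted p = 0.0129). Its p was number 4 among the 6104 genes with a higher mean in TE. TFAP2A exceeded 88.9% to 92.7% of all rows in the TE libraries and 52.2% to 70.4% in the ICM libraries, a ranking that does not depend on how libraries are scaled. Without TE 16, 23 or 24 the difference was 2.64, 2.37 and 2.37, and the adjusted p rose to 0.0874, 0.0798 and 0.106. In those fits limma called 0, 1 and 1 of 9436 genes at all, with 983, 925 and 953 at an unadjusted p under 0.05, and TFAP2A, DLX5 and GRHL1 were among the latter each time.

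DLX5, on chromosome 4 (40189863 to 40194251), had the smallest spread relative to its mean of the 5 in TE (17.8 ± 0.69 RPKM, SD, n = 3). It stood at 17.1, 17.9 and 18.5 RPKM in TE 16, 23 and 24 (478 to 653 reads) and at 2.52, 3.90 and 1.31 RPKM in ICM 15, 22 and 25 (44 to 162 reads). The groups were far apart, and ICM 25 was the lowest library. The log2 difference was 2.46 (SE 0.30, 95% interval 1.78 to 3.15, limma adjusted p = 0.0142), and 2.18 without ICM 25 (adjusted p = 0.00211). The call was lost on leaving out ICM 15 (adjusted p = 0.0513), and also on leaving out TE 16, 23 or 24 (0.0970, 0.0845 and 0.106). It exceeded 82.7% to 83.8% of all rows in TE and 31.3% to 49.1% in ICM.

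GRHL1, on chromosome 15 (83474602 to 83519737), stood at 17.7, 26.6 and 21.8 RPKM in TE 16, 23 and 24 (881 to 1050 reads). In ICM 15, 22 and 25 it stood at 3.30, 7.59 and 5.71 RPKM (154 to 431 reads). Every TE value was higher than every ICM value. GRHL1 exceeded 83.6% to 89.3% of all rows in TE and 48.1% to 67.5% in ICM. The log2 difference was 1.86 (SE 0.31, 95% interval 1.15 to 2.56, limma adjusted p = 0.0287), and 1.90 without ICM 25 (adjusted p = 0.0109). This call was also lost without ICM 15 (adjusted p = 0.0721) and without TE 16, 23 or 24 (0.139, 0.182 and 0.142).

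CDX2, on chromosome 17 (7667712 to 7672956), rested on few reads. TE 16, 23 and 24 held 16, 6 and 17 reads, or 0.924, 0.472 and 1.01 RPKM, and ICM 15, 22 and 25 held 1, 7 and 3 reads, or 0.0615, 0.354 and 0.188 RPKM. All TE values were above all ICM values in RPKM, although TE 23 had fewer reads than ICM 22. Every row of the deposited table reaches 0.4 RPKM in at least 2 libraries, and CDX2 did so in TE only. Its presence among the rows thus favours TE above ICM, so the separation, tests and ratio given here only describe its values. A single read was worth 0.0506 to 0.0786 RPKM, since the counted length of this gene was 663 bases. The 95% Poisson intervals of the reads were 2.20 to 13.1 in TE 23 and 2.81 to 14.4 in ICM 22. The difference in log2(RPKM + 1) was 0.58 (exact permutation test, two-sided, p = 0.1, the smallest that 3 against 3 allows). In limma with no filter it had an unadjusted p of 0.0205 and an adjusted p of 0.202. Over the pooled reads, 39 in TE and 11 in ICM, the ratio scaled by the library factors was 3.94 (95% exact binomial interval 1.98 to 8.52). These intervals cover counting error only, because the cDNA was amplified and reads are not independent molecules. CDX2 exceeded 12.9% to 24.9% of all rows in TE and 3.17% to 6.33% in ICM.

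TFAP2C, on chromosome 22 (43348764 to 43354573), did not separate the tissues. It stood at 9.24, 10.6 and 10.8 RPKM in TE 16, 23 and 24 and at 11.2, 16.1 and 3.86 RPKM in ICM 15, 22 and 25. ICM 15 and 22 lay above every TE library and ICM 25 lay below them all. The log2 difference TE minus ICM was 0.16 (SE 0.42, 95% interval -0.80 to 1.11, limma adjusted p = 0.896), an interval that includes differences of about the size of a doubling in either direction. Without ICM 25 the difference changed sign to -0.37 (95% interval -0.85 to 0.11, adjusted p = 0.292). All of these values come from 109 to 562 reads per library, so counting error is small beside the spread in ICM.

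The authors' deposited table, made with DESeq, gives adjusted p of 3.23e-17 for TFAP2A, 1.51e-12 for DLX5 and 1.12e-08 for GRHL1. In the authors' deposited table CDX2 has an adjusted p of 0.157 and TFAP2C one of 0.95. At 0.05, 5.93% of the rows of the authors' deposited table pass with a higher mean in TE, and the 3 members that pass there are those called by limma.

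The order of the 5 levels, compared per length in RPKM, was the same in all 3 TE libraries: TFAP2A, GRHL1, DLX5, TFAP2C and CDX2. Across TE libraries the ranges of TFAP2A (25.7 to 37.9) and GRHL1 (17.7 to 26.6) overlapped, as did those of GRHL1 and DLX5 (17.1 to 18.5). The order nevertheless held within each TE library, and differences between these genes were not tested. DLX5, TFAP2C and CDX2 did not overlap with one another. In ICM 15 and 22 TFAP2C came first, in ICM 25 TFAP2A and GRHL1 came before TFAP2C, and DLX5 and CDX2 were the last in all ICM libraries.

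TFAP2A and TFAP2C encode related AP-2 proteins, and their balance within a library does not depend on scaling between libraries. TFAP2A made up 73.5%, 78.0% and 77.9% of their summed RPKM in TE 16, 23 and 24. Its share was 26.2% and 25.3% in ICM 15 and 22 and 62.8% in ICM 25. TFAP2A was thus the larger part in every TE library and in ICM 25, and TFAP2C in the other two ICM libraries. The log2 ratio of TFAP2A to TFAP2C, with 1 RPKM added to each, was 2.30 higher in TE than in ICM (exact permutation test, two-sided, p = 0.1, the smallest possible), and 2.96 higher without ICM 25. The sum of both genes was 34.9 to 48.7 RPKM in TE and 10.4 to 21.5 in ICM (exact permutation p = 0.1). TFAP2B, TFAP2D and TFAP2E were not analysed here.

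**Figure D2:**
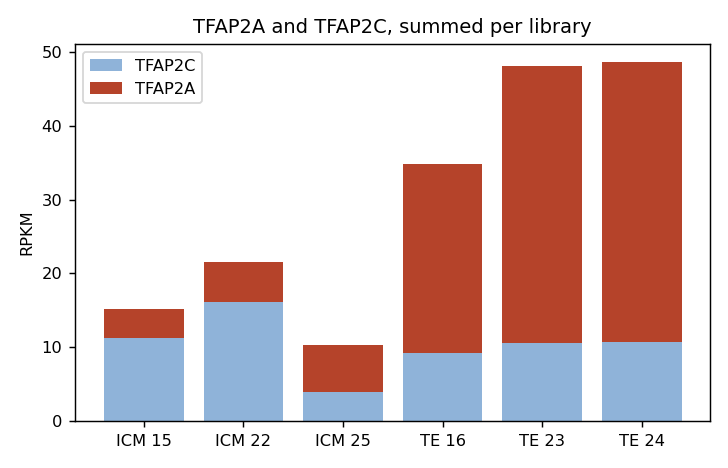
Stacked RPKM of TFAP2C (blue) and TFAP2A (red) in each library. The TFAP2C part is 9.24 to 10.8 RPKM in TE, while the TFAP2A part is 25.7 to 37.9 in TE and 3.98 to 6.50 in ICM.

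Other members of these families were described from lists chosen with earlier results of these data known. Of the DLX and MSX list 4 of 8 genes were in the table, 3 were tested and 2 were called higher in TE, DLX5 and DLX6, where 0.933% of all genes were. DLX6, the paired neighbour of DLX5, stood at 4.12, 4.90 and 7.62 RPKM in TE 16, 23 and 24 and at 0.348, 1.83 and 1.13 in ICM 15, 22 and 25. TE thus lay above ICM, and the log2 difference was 1.67 (limma adjusted p = 0.0472). DLX6 was called in 4 of 7 other settings with all libraries (adjusted p 0.0180 to 0.0949). With a library left out it was called only without ICM 25 (0.0235), and the adjusted p was 0.0599 without ICM 22, 0.119 without ICM 15 and 0.163, 0.217 and 0.206 without TE 16, 23 and 24. DLX3, a placental family member, stayed below the filter, with 18 to 27 reads per TE library against 0, 10 and 7 for ICM 15, 22 and 25. MSX2, a homeodomain repressor, had means of 25.0 ± 4.55 RPKM in TE and 21.4 ± 8.51 in ICM (± SD, n = 3 each, limma adjusted p = 0.722). DLX3, DLX5 and DLX6 together came to 22.0, 23.5 and 26.8 RPKM in TE 16, 23 and 24 and to 2.86, 5.99 and 2.66 in ICM 15, 22 and 25 (exact permutation p = 0.1). DLX5 was 69.0% to 77.7% of that sum in TE and 87.8%, 65.1% and 49.2% of it in ICM 15, 22 and 25, so its share overlapped between tissues (exact permutation p = 0.6).

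All 6 genes of the grainyhead list were tested and had a higher mean in TE, as did 64.7% of all genes tested. In the list 2 were called higher in TE, GRHL1 and GRHL3, where 0.933% of all genes were. GRHL3 passed the filter through its TE libraries only, which favours a call higher in TE. GRHL2, TFCP2L1, UBP1 and TFCP2 had log2 differences of 0.94, 0.55, 0.44 and 0.20. The median log2 difference of the 6 was 0.75, against 0.15 over all genes tested. It counts in GRHL3 and the member GRHL1, so it only describes the list. With median of ratios rescaling the medians of the list and of all genes were 0.61 and 0.03. All 6 differences stayed above 0 there, while that of TFCP2 fell below 0 with library weights and without ICM 25. GRHL3, a regulator of epidermal barrier, stood at 1.96, 2.84 and 2.41 RPKM in TE 16, 23 and 24 and at 0.562, 0.240 and 0.480 in ICM (log2 difference 1.25, limma adjusted p = 0.0413). TE and ICM did not overlap, but the call was lost with a pseudocount of 0.1 (adjusted p = 0.0548) and with quantile normalization (0.0598). With a library left out GRHL3 was called only without ICM 25 (0.0157), and the adjusted p was 0.0793 and 0.0840 without ICM 15 and 22 and 0.163, 0.257 and 0.177 without TE 16, 23 and 24.

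GRHL2, which controls epithelial junction genes, stood at 10.2, 9.56 and 10.3 RPKM in TE 16, 23 and 24 and at 3.01, 4.43 and 7.69 in ICM 15, 22 and 25. Every TE value was above every ICM value, and the log2 difference of 0.94 was not called (limma adjusted p = 0.172) except without ICM 25 (1.24, adjusted p = 0.0116) and with library weights (1.11, 0.0169). GRHL1 made up 59.3% to 68.2% of the summed RPKM of GRHL1, GRHL2 and GRHL3 in TE and 48.0%, 61.9% and 41.1% in ICM 15, 22 and 25, so the shares overlapped (exact permutation p = 0.2). TFCP2L1, a related factor of naive pluripotency, was the most abundant gene of the list in both tissues, at 57.3 ± 0.61 RPKM in TE and 39.3 ± 7.85 in ICM (mean ± SD, n = 3 each, limma adjusted p = 0.284). It passed without ICM 25 (log2 difference 0.69, adjusted p = 0.0373). UBP1 and TFCP2, broadly expressed members, had log2 differences of 0.44 and 0.20 (limma adjusted p = 0.373 and 0.803). Without ICM 25 the difference of TFCP2 was -0.12. In that fit 4 genes of the list, GRHL3 among them, were called, all higher in TE, where 5.62% of all genes were.

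**Figure D3:**
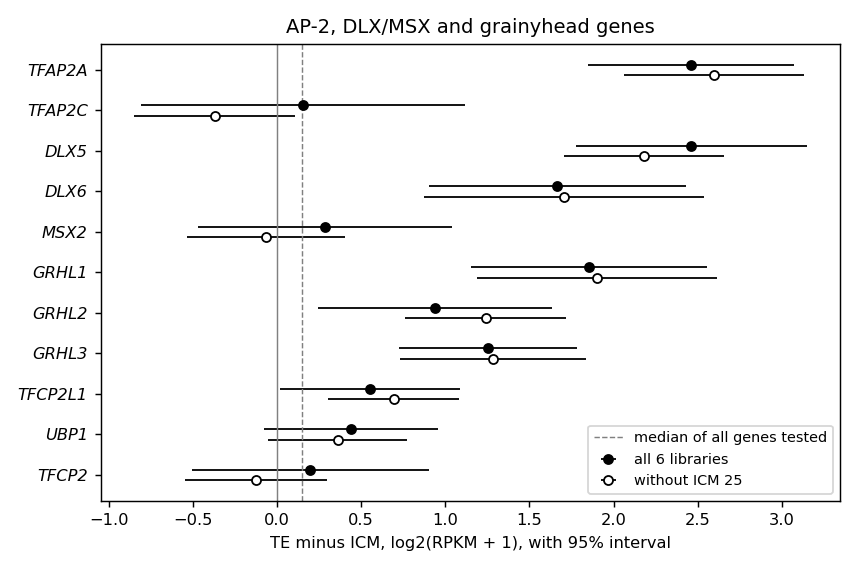
Difference TE minus ICM in log2(RPKM + 1) with 95% intervals for the AP-2, DLX and MSX, and grainyhead genes tested, with all libraries (filled) and without ICM 25 (open). TFAP2A, DLX5 and GRHL1 lie at 1.86 to 2.46 with all libraries, and TFAP2C, MSX2 and TFCP2 move from above to below 0 when ICM 25 is left out.

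Proteins that bind AP-2 factors did not move together. Among 5 tested, 1 was called, and it was higher in ICM, as were 0.933% of all genes tested. This gene, CITED1, passed the filter through its ICM libraries only, which favours a call higher in ICM. CITED1, a coactivator of AP-2 that is also known from endoderm and placenta, stood at 2.65, 2.45 and 1.01 RPKM in ICM 15, 22 and 25 and at 0, 0.0705 and 0.107 in TE (log2 difference -1.47, limma adjusted p = 0.0436). With a library left out it passed only without ICM 25 (0.00520), and the adjusted p was 0.110 and 0.0888 without ICM 15 and 22 and 0.199, 0.214 and 0.172 without TE 16, 23 and 24. KCTD1, which represses AP-2 activity, went the other way at 3.55, 8.89 and 6.29 RPKM in TE and 0.264, 1.70 and 2.12 in ICM, without overlap (log2 difference 1.65, limma adjusted p = 0.0862, and 0.025 without ICM 25). Its relative KCTD15 stood at 1.52 ± 0.07 RPKM in TE and 0.635 ± 0.33 in ICM (adjusted p = 0.217). The acetyltransferases EP300 and CREBBP had log2 differences of -0.12 and -0.09 (limma adjusted p = 0.833 and 0.875).

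Of 25 other trophoblast transcription factors 19 were in the table, 16 were tested, and 10 of these had a higher mean in TE, close to the 64.7% of all genes tested. In the list 1 gene was called higher in TE, GATA3, where 0.933% of all genes were. The list's median log2 difference was 0.22, close to the 0.15 of all genes. GATA3, a driver of trophoblast identity, stood at 30.9, 31.1 and 36.6 RPKM in TE 16, 23 and 24 and at 1.78, 5.88 and 4.54 in ICM (log2 difference 2.84, limma adjusted p = 0.0142). It was lost without TE 16, 23 or 24 (adjusted p = 0.0970, 0.0798 and 0.106). The epithelial ETS factor ELF3 (9.23 ± 0.05 RPKM in TE, 3.83 ± 2.61 in ICM), the nuclear receptor ESRRB (3.79 ± 0.37 and 1.55 ± 0.80) and GATA2 (18.1 ± 4.98 and 6.49 ± 4.33) had higher means in TE and were not called (limma adjusted p = 0.132, 0.147 and 0.152; SD over n = 3). ELF3 was called without ICM 22 (log2 difference 1.62, adjusted p = 0.0394), and the difference of GATA2 fell from 1.53 to 0.96 without ICM 15. ID2, an inhibitor of helix-loop-helix factors used as a trophectoderm marker in mouse, had the higher mean in ICM (log2 difference -1.28, adjusted p = 0.169, and 0.00592 without ICM 25). GCM1, a factor of the syncytial placenta named here after its values were seen, had 98, 199 and 30 reads in ICM 15, 22 and 25 and 2, 0 and 3 in TE. It fell below the filter, and limma without a filter gave an adjusted p of 0.0729. The row of GCM1 reached 0.4 RPKM through ICM libraries only, which favours ICM above TE. NR2F2, also below the filter, went the other way. It had 9, 70 and 46 reads in TE 16, 23 and 24 and 0, 3 and 2 in ICM. Its row reached 0.4 RPKM through TE libraries only, and limma without a filter gave an adjusted p of 0.209. OVOL2, below the filter too, overlapped between tissues.

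Among epithelial genes known to be bound or activated by AP-2 or grainyhead factors, 21 of 26 were in the table, and those tested had means on both sides: 11 were higher in TE and 9 in ICM, and 9 and 11 after median of ratios rescaling. Of 20 tested, 0 were called by limma and 0 by limma voom on the recovered reads, which called 1.32% of all genes. In limma 3 had an unadjusted p under 0.05 with TE higher and 1 with ICM higher. The median log2 difference was 0.09, against 0.15 for all genes, and -0.02 against 0.03 with median of ratios rescaling. ESRP2, an epithelial splicing factor, stood at 13.3 ± 2.17 RPKM in TE and 5.71 ± 0.52 in ICM (n = 3 each, limma adjusted p = 0.0595). CDH1, the adhesion protein E-cadherin, was on the other side at 47.8 to 56.9 RPKM in TE and 75.3, 85.6 and 99.3 in ICM 15, 22 and 25 (adjusted p = 0.185). The protease inhibitor SPINT1 had a log2 difference of 0.81 (adjusted p = 0.198), ESRP1 one of 0.56 (0.274) and the keratin KRT7 one of 0.99 (0.388). KRT7 varied widely in ICM, at 0.815, 5.87 and 8.08 RPKM in ICM 15, 22 and 25 against 8.53 to 8.67 in TE, and its difference was 0.28 without ICM 15. Without ICM 25, 5 of the 20 were called, all higher in TE, among them ESRP2 (adjusted p = 0.0175) and SPINT1 (0.0257), where 5.62% of all genes were called higher in TE. With library weights 3 were called, all higher in TE, where 4.19% of all genes were.

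Genes of CDX2-positive epithelia, such as intestine, were also compared. With CDX2 itself at 1 to 17 reads per library and not called, these values cannot show whether such genes follow it. Of 10 genes 4 were in the table and 3 were tested, with 0 called by limma or by limma voom and 1 at an unadjusted p under 0.05. LGALS4, an intestinal galectin, had the higher mean in ICM at 3.72 ± 1.79 RPKM against 1.31 ± 0.48 in TE (n = 3 each, limma adjusted p = 0.164). GUCY2C and HNF4A had log2 differences of -0.24 and -0.04 (limma adjusted p = 0.764 and 0.982).

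**Figure D4:**
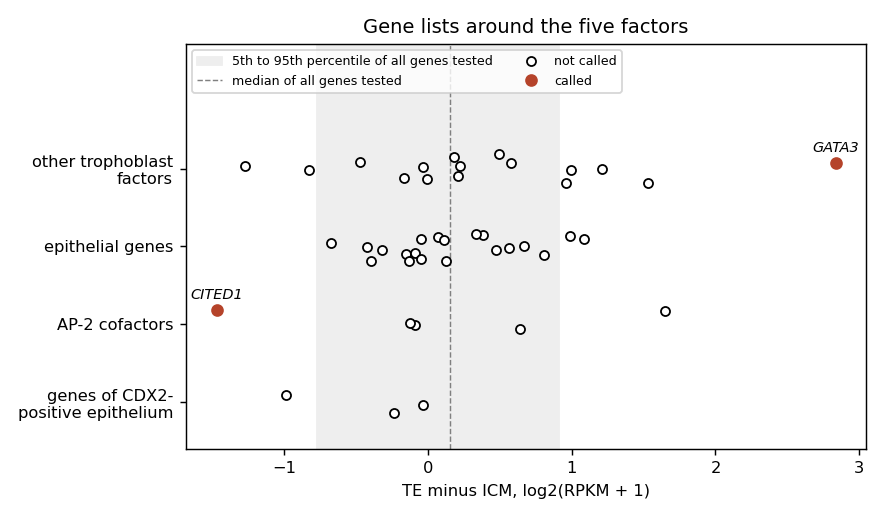
Difference TE minus ICM in log2(RPKM + 1) of each gene tested in 4 lists, with called genes in red, beside the median (dashed, 0.15) and the range from the 5th to the 95th percentile (grey, -0.77 to 0.91) of all genes tested. GATA3 at 2.84 and CITED1 at -1.47 are the called genes of these lists, and CITED1 passed the filter through its ICM libraries only.

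Similarity of pattern was described by Pearson's r of log2(RPKM + 1) over the 6 libraries, which share the tissue split and the outlying ICM 25. TFAP2A correlated at 0.972 with GRHL1 and 0.938 with DLX5, and DLX5 at 0.935 with GRHL1. TFAP2C correlated at 0.07 with TFAP2A, 0.38 with DLX5 and 0.18 with GRHL1. These values restate the tissue difference of the first 3 factors, since within ICM they ran differently: TFAP2A was highest in ICM 25, DLX5 was lowest there, and GRHL1 was highest in ICM 22.

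The 4 genes most like TFAP2A were LRP8, a lipoprotein receptor (r = 0.998), VWA8 (0.997), the zinc carrier SLC30A7 (0.995) and RALGDS, an exchange factor for Ral GTPases (0.995). Their differences TE minus ICM in log2(RPKM + 1) were 1.68, 0.87, 0.62 and 2.17, in that order. Those most like DLX5 were PAQR8, a membrane progestin receptor (r = 0.999), the helicase BRIP1 (0.998), the sterol sensor INSIG1 (0.997) and the sterol carrier GRAMD1B (0.997). In that order their log2 differences were 2.03, 0.67, 0.98 and 1.97. Those most like GRHL1 were SEPHS2 (0.997), the phosphatidylinositol carrier PITPNA (0.996), GYLTL1B (0.995) and the sterol carrier STARD4 (0.995), with log2 differences of 0.53, 1.02, 0.72 and 1.36. No test is given for these genes, since they were chosen for following a factor that is higher in TE.

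The 4 genes most like TFAP2C were LOC100060658 (r = 0.995), ACTR10 (0.994), TROVE2 (0.994) and CTBP1 (0.992). They had log2 differences of 0.24, 0.04, 0.06 and 0.05. Like TFAP2C, each was lowest in ICM 25 and highest in ICM 22. CTBP1, a corepressor, stood at 1.89, 2.38 and 0.962 RPKM in ICM 15, 22 and 25 and 1.66 to 1.91 in TE.

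The nearest rows on both sides of each member in the deposited coordinates, 20 in all, were looked up after the members' values had been seen. Of 17 tested, 2 were called, both higher in TE, where 0.933% of all genes were. They were DLX6, 10.3 kb from DLX5, and GCNT2, 178 kb from TFAP2A. GCNT2, which builds branched carbohydrate chains, stood at 28.7, 40.8 and 25.0 RPKM in TE 16, 23 and 24 and at 7.22, 9.98 and 13.9 in ICM 15, 22 and 25 (log2 difference 1.53, limma adjusted p = 0.0452). This call held in 3 of 8 other settings with all libraries (adjusted p 0.00620 to 0.102). With a library left out it held only without ICM 25 (0.00667), and the adjusted p was 0.128 and 0.0910 without ICM 15 and 22 and 0.196, 0.271 and 0.154 without TE 16, 23 and 24. DLX6-AS1, an antisense RNA 49.7 kb from DLX5, was at 1.27 to 1.43 RPKM in TE and 0.935, 1.18 and 0.380 in ICM (adjusted p = 0.488), and strand of the counting was not stated. TAF1B, 19.6 kb from GRHL1, had a log2 difference of 0.26 (limma adjusted p = 0.749).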

How the data were processed

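RNA of 3 ICM and 3 TE libraries was amplified and sequenced. The authors deposited 1 table with 6 columns of RPKM, per the file headers, and beside them a mean signal per gene (baseMean), a fold as a ratio of ICM over TE, its log2 value, p-values and adjusted p-values, and a residual variance score, which was not used. The authors used FastQC and DESeq, per the submitters' processing notes, while the aligner, counter, build and annotation are not stated in the sources used here. Every row of the deposited table reaches 0.4 RPKM in at least 2 libraries.

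RPKM times the quotient of baseMean and mean RPKM was divided by a step fitted for each library, the inverse of its library factor. This gave whole reads within 0.001 for 100% of values up to 1000 reads. Symbols were used as deposited, with spaces removed. The 9436 genes that reach 1 RPKM in 3 libraries or more were fitted as log2(RPKM + 1) with limma 3.58.1 in R 4.3.3 (eBayes with trend), two-sided, with Benjamini-Hochberg adjustment at 0.05. Tissues share no library number, so no block was used. The test was run on simulated data first. Alternatives were another pseudocount, other filters and scalings, library weights, no variance trend, voom on recovered reads, and leaving out each library. Single values were tested by exact permutation (scipy 1.17.1).

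The members, lists and tests were chosen with earlier results of these data known. Named were all 5 members, all family members in the table, called genes of the other lists filled up to 5 a list by smallest p, and the 4 genes most correlated with each member that passed the filter.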

Additional observations from a re-analysis of the deposited data

How the results depend on the processing

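With all libraries, TFAP2A, DLX5 and GRHL1 kept their direction and call in 8 of 8 other settings, and 3 members were called in each. In the setting that required 5 RPKM, DLX5 passed through its TE libraries only, which favours a call higher in TE. With a library left out, the number called ranged from 0 to 3: 1 without ICM 15, 0 without any 1 TE library, and 3 without ICM 22 or 25. The log2 difference TE minus ICM then ranged from 2.30 to 2.64 for TFAP2A, 2.18 to 2.72 for DLX5 and 1.58 to 2.08 for GRHL1, and fewer samples and fewer calls over all genes went with the losses. TFAP2C ranged from -0.37 to 0.54 and turned to -0.26 with library weights. CDX2 ranged from 0.49 to 0.72 and the TFAP2A to TFAP2C log2 ratio from 1.95 to 2.96. The exact permutation p was 0.2 for both, the smallest that 3 against 2 allows. For both, every TE library lay above every ICM library. Leaving out a library could therefore change neither their direction nor this p. No paired analysis was possible because the tissues share no library number.

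Genes that were not called changed sign in places, and the cause was not tested. With a library left out the ranges were -0.0625 to 0.53 for MSX2, -0.12 to 0.43 for TFCP2, -0.54 to 0.0033 for GUCY2C, -0.72 to 0.36 for HNF4A, -0.32 to 0.64 for LOC100060658, -0.33 to 0.33 for ACTR10, -0.17 to 0.21 for TROVE2 and -0.18 to 0.22 for CTBP1. Library weights gave -0.0773 for TFCP2, -0.22 for LOC100060658, -0.25 for ACTR10, -0.12 for TROVE2 and -0.12 for CTBP1. Median of ratios rescaling and quantile normalization gave -0.0684 and -0.0698 for ACTR10, -0.0613 and -0.0699 for TROVE2 and -0.0262 and -0.0017 for CTBP1. HNF4A was 0.0659 with a pseudocount of 0.1 and 0.0512 by voom.

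The median difference of all genes, 0.15, was 0.03 after median of ratios rescaling and 0.01 without ICM 25. The number of genes called over the whole table was 176, and 112 with a pseudocount of 0.1, 114 unfiltered, 81 when 5 RPKM was required, 760 with library weights, 18 without ICM 15, 76 without ICM 22, 1086 without ICM 25, and 0, 1 and 1 without TE 16, 23 and 24. Depth limits CDX2, at 1 to 17 reads per library.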
